A study of Mus musculus with 75 samples.

Results

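Treatment of chow-fed mice that lack cannabinoid receptor 1 (CB1) with AM251 was examined in liver, using 5 arrays of AM251-treated knockouts (mice 20 to 24) and 5 arrays of vehicle-treated knockouts (mice 15 to 19), 10 of the 39 liver arrays and of the 75 arrays in the series. The arrays were taken by their labels alone, and gene expression was measured as log2 intensity on a one-colour microarray. All 10 mice were males homozygous for a null allele of the CB1 gene, which is not restricted to a tissue, on a C57BL/6 background. From 2 months of age they ate regular chow with 13% of its energy from fat for 14 weeks. AM251 at 10 mg per kg, or 0.5% methylcellulose vehicle, was then given by gavage in the late afternoon on 2 days, and the mice were killed at 10 in the morning after the second dose. The comparisons set beside it used knockouts on a high-fat diet with 59.4% of energy from fat (5 AM251 and 4 vehicle arrays), chow-fed wild-type littermates (5 and 5) and high-fat-fed wild-type littermates (5 and 5), dosed in the same way. The labels number the mice separately but give no litters, so p-values measure the spread between these mice only, and the number of arrays limits the precision.

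AM251 is an inverse agonist of CB1, the G protein-coupled receptor for endocannabinoids. The knockouts lack CB1, so the comparison asks what AM251 changes in a liver without this receptor. Which other targets, if any, AM251 acts on in these mice was not tested. The liver answers many foreign compounds through the nuclear receptors CAR and PXR, which raise the cytochrome P450 enzymes of the Cyp2b, Cyp2c and Cyp3a families together with conjugating enzymes and transporters. Cyp2b10 is the classical CAR target in mouse liver, and Cyp2c29 and Cyp2c55 are inducible members of the Cyp2c family. The proximal promoters of these 3 genes are shown because they are the genes that passed the test in the mean of both knockout comparisons. Each is the window of 300 bases around the start of the gene, on the plus strand in RefSeq's annotation of GRCm38.p6, at chr7:25897408-25897707 for Cyp2b10, chr19:39286835-39287134 for Cyp2c29 and chr19:39006769-39007068 for Cyp2c55. Capitals mark matches, on either strand, to the nuclear receptor half-sites AGGTCA and AGTTCA and to the TATA sequence TATAAA.
Cyp2b10: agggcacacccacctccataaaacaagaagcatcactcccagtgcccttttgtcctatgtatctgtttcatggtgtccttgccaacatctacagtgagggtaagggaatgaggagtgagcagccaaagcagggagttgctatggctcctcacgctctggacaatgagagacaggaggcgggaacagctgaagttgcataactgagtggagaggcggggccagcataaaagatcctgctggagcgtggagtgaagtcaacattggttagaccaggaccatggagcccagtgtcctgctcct
Cyp2c29: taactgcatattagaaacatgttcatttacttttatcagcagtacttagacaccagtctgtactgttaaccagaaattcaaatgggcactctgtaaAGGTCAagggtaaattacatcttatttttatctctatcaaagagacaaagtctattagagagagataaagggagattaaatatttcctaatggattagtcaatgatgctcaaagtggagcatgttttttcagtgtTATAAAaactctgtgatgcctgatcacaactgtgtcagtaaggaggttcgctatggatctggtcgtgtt
Cyp2c55: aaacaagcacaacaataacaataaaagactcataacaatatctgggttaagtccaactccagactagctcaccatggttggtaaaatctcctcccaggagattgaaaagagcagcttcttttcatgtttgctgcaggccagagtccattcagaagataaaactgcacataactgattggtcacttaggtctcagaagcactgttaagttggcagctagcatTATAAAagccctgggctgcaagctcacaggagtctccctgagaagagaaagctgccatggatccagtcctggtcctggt
Cyp2c29 held 1 AGGTCA and 1 TATAAA, Cyp2c55 held 1 TATAAA, and Cyp2b10 held none of these letters in this window. Of 32851 promoters of the same length, 16.3% held AGGTCA, 14.0% AGTTCA and 13.6% TATAAA on either strand. A match is a description of the letters and not evidence of a binding site.

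Before the treatment was compared, the targeted gene and the arrays were checked. Cnr1, the gene of CB1, had on its brighter probe set log2 intensities of 5.95, 5.79, 5.60, 5.91 and 5.83 in AM251 mice 20 to 24, against 6.09, 5.57, 6.01, 6.02 and 5.80 in vehicle mice 15 to 19. Chow-fed wild-type vehicle livers averaged 5.95 on the same probe set. The position of the probes with respect to the deletion is unknown, and the levels are no check of the knockout or of the labels. The change was -0.08 ± 0.11 (SE, adjusted p = 0.79).

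Vehicle arrays 17 and 15 stood apart. Their mean correlations with the other liver arrays were 0.974 and 0.983, below the 0.986 to 0.992 of the other 37. The epididymal fat arrays of the same mice did not stand apart, at 0.989 for mouse 17 and 0.985 for mouse 15, where the lowest fat array had 0.976. In these 2 livers genes that span more of the genome lay lower than in the mean liver. Spearman's rho across genes between the deviation of an array and genomic span was -0.20 for array 15 and -0.17 for array 17, -0.13, -0.10, -0.01, -0.15 and 0.01 for AM251 arrays 20 to 24, and -0.10, -0.13 and -0.12 for vehicle arrays 16, 18 and 19. Arrays 15 and 17 were the lowest of all livers on this measure, and the 8 lowest of the 39 were all chow-fed knockouts. Values without these arrays are therefore given beside many of the results.

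**Figure D1:**
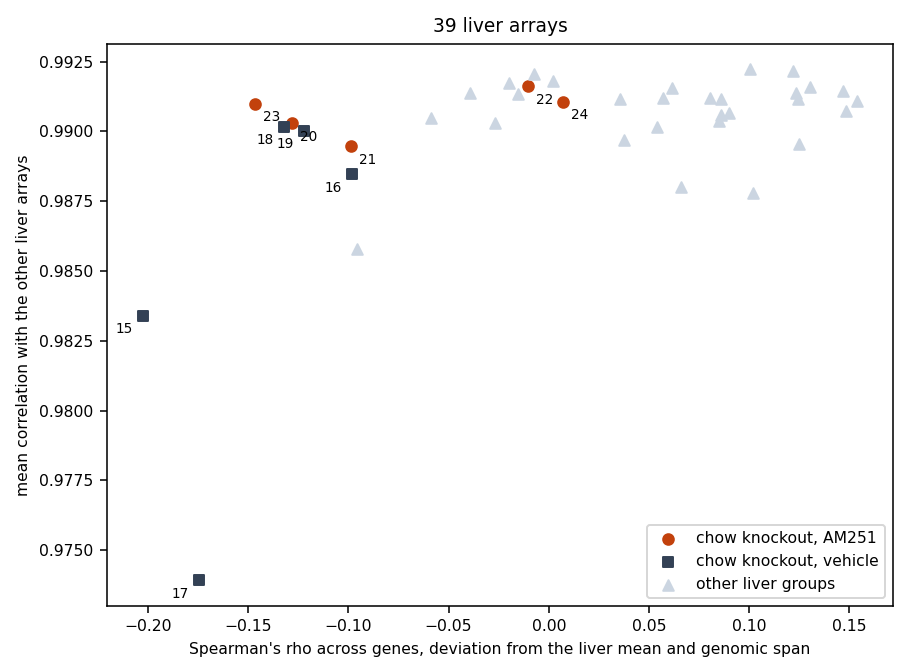
Mean correlation of each of the 39 liver arrays with the other livers (vertical axis) against Spearman's rho across genes between the array's deviation from the liver mean and genomic span (horizontal axis), with mouse numbers for the chow-fed knockouts. Vehicle arrays 15 and 17 have the lowest correlations, 0.983 and 0.974, and the lowest rho.

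AM251 raised Cyp2c29 in the livers of chow-fed knockouts, and higher values of Cyp2c55 and Cyp2b10 stood beside it without passing the test there. Averaged over the chow and the high-fat comparison, which share no arrays, all 3 rose, by 1.87-fold, 3.93-fold and 4.54-fold. They were the only genes of the 19147 tested to pass in that mean (0.0157%), at an adjusted p under 0.05 by limma with Benjamini-Hochberg adjustment, and 1759 genes had an unadjusted p under 0.05 (9.19%). The adjusted p was 5.97e-08 for Cyp2c29, 2.01e-06 for Cyp2c55 and 0.0331 for Cyp2b10, whose call ended under 16 of 27 alternative settings, with adjusted p from 0.00777 to 0.187.

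Cyp2c29, an inducible monooxygenase of hepatocytes, had log2 intensities of 13.81, 14.07, 14.10, 13.80 and 14.13 in AM251 mice, against 13.00, 13.45, 13.46, 13.37 and 13.52 in vehicle mice. Every AM251 array lay above every vehicle array, and vehicle array 15 was the lowest. The change of 0.62 ± 0.12 (SE, n = 5 and 5), a 1.54-fold rise, had an adjusted p of 0.0244 by limma. Without arrays 15 and 17 it was 0.53 ± 0.14 with an adjusted p of 0.24 by limma, so the call was lost.

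Cyp2c55, which oxidises arachidonic and linoleic acid, had 9.42, 9.53, 10.41, 8.83 and 8.95 in AM251 mice, against 6.40, 8.77, 8.62, 8.11 and 8.33 in vehicle mice. The groups did not overlap, although AM251 array 23 lay only slightly above vehicle array 16, and vehicle array 15 was far below the rest. The log2 change was 1.38 ± 0.31 (adjusted p = 0.0594 by limma), and 1.02 ± 0.29 without arrays 15 and 17.

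Cyp2b10 had 7.70, 8.10, 10.26, 8.27 and 9.22 in AM251 mice, against 5.43, 6.93, 8.05, 6.02 and 6.57 in vehicle mice. It varied most within groups, with SDs of 1.03 and 0.99, and vehicle array 17 lay above AM251 array 20, so the groups overlapped. The log2 change of 2.11 ± 0.56, or 4.32-fold, had an adjusted p of 0.0966 by limma. Its value was 2.20 ± 0.63 without arrays 15 and 17.

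The level reached under AM251 differed by gene from that on the other diet. Cyp2c29 averaged 13.98 ± 0.16 in chow-fed and 13.98 ± 0.10 in high-fat-fed knockouts under AM251 (SD, n = 5 each), against 13.36 ± 0.21 (n = 5) and 12.80 ± 0.23 (n = 4) under vehicle. Cyp2c55 averaged 9.43 ± 0.63 under AM251 and 8.05 ± 0.95 under vehicle on chow, and 8.37 ± 0.41 under AM251 and 5.80 ± 0.13 under vehicle on the high-fat diet. Cyp2b10 averaged 7.00 ± 1.15 under AM251 and 4.75 ± 0.21 under vehicle in high-fat-fed knockouts, both below the chow-fed groups with the same treatment. In wild-type mice on chow the changes were 0.20 ± 0.12 for Cyp2c29, 0.14 ± 0.31 for Cyp2c55 and 0.90 ± 0.56 for Cyp2b10, none past the threshold. In high-fat-fed wild-type mice they were 1.28 ± 0.12, 0.39 ± 0.31 and 2.65 ± 0.56, of which Cyp2c29 and Cyp2b10 passed. In the epididymal fat of chow-fed knockouts, with 3 AM251 arrays, the changes were -0.22 for Cyp2c29, 0.03 for Cyp2c55 and 0.06 for Cyp2b10, and none passed.

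**Figure D2:**
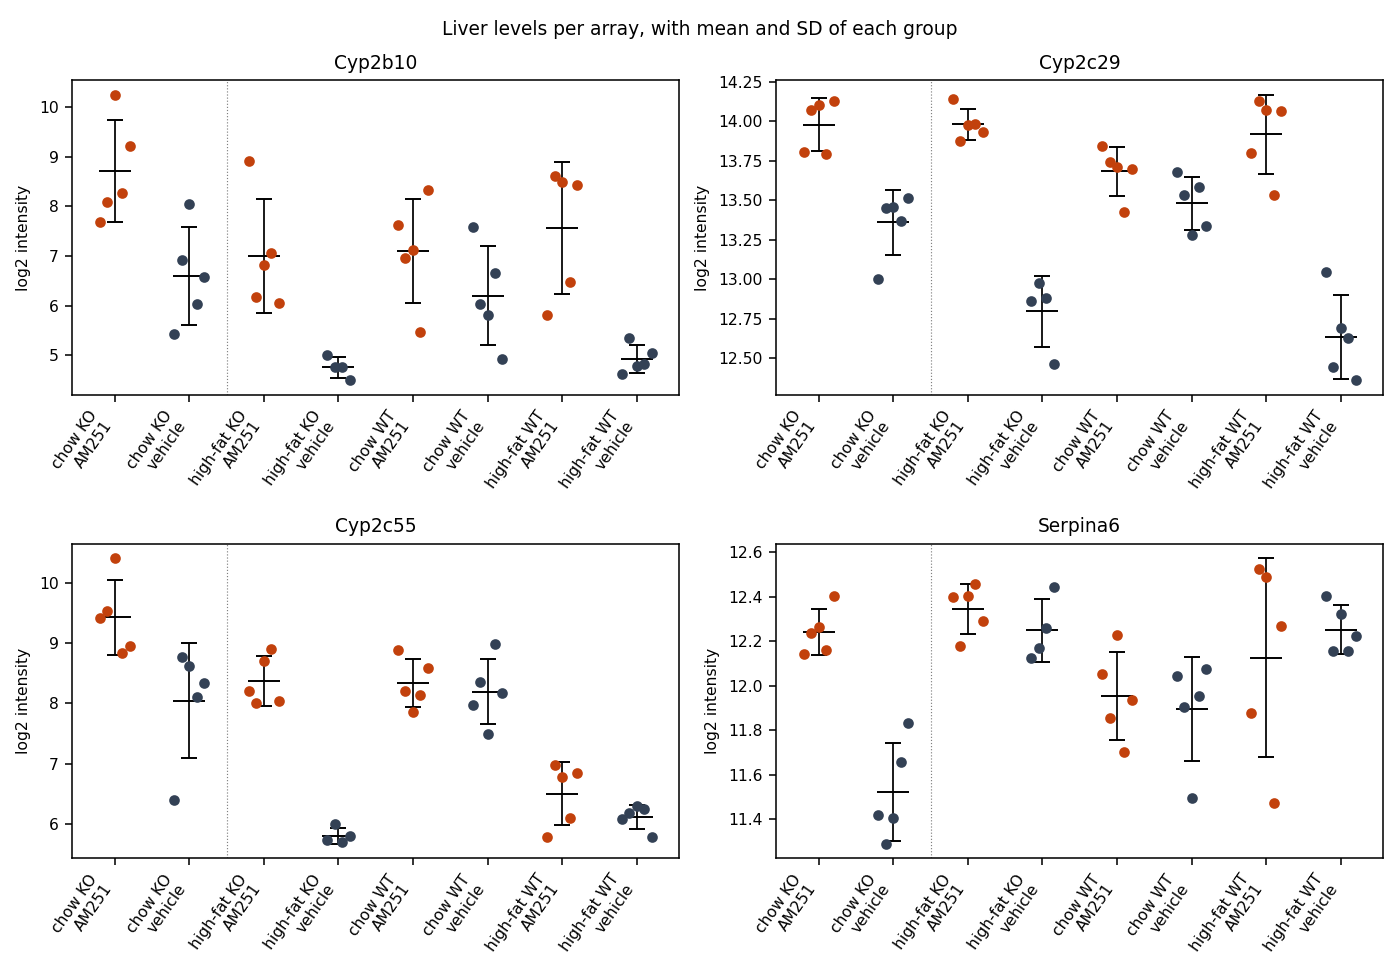
Log2 intensity of Cyp2b10, Cyp2c29, Cyp2c55 and Serpina6 on each liver array, with AM251 groups in orange and vehicle groups in dark, KO for knockout, WT for wild type, and bars for the mean and SD. In chow-fed knockouts, left of the dotted line, the groups do not overlap for Cyp2c29, Cyp2c55 and Serpina6 and overlap for Cyp2b10.

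No other gene on the lists of foreign-compound metabolism passed the threshold. Of 13 measured genes of the Cyp2a, Cyp2b and Cyp2c families, 1 rose, 0 fell and 12 did not pass, against 0.125% of all genes called in the comparison. The list's median log2 change was 0.17, against -0.03 over all genes, and 0.07 without arrays 15 and 17. In 3 of the 13 every AM251 array lay above every vehicle array, as in 0.449% of all genes. The third of these was Cyp2c38, another Cyp2c enzyme, with 5.10, 5.93, 5.61, 6.01 and 5.91 in AM251 mice against 4.18, 4.98, 4.54, 4.97 and 5.05 in vehicle mice, and a change of 0.97 ± 0.33 (adjusted p = 0.181). Cyp2b9, which is female-biased in mouse liver, reached 7.24 and 7.06 in AM251 mice 22 and 24, while the other 3 AM251 mice had 4.04 to 4.50 and vehicle mice 3.84 to 4.61. These were also the 2 AM251 mice with the highest Cyp2b10, a pairing seen in these values and not tested. Cyp2b23 was dim in both groups and had a change of -0.55 ± 0.12 (adjusted p = 0.0594). These families hold close relatives, and cross-hybridisation between them was not tested.

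Of 10 measured Cyp3a and Cyp1a genes none passed, with a median of -0.08. Cyp3a11, the usual PXR target in mouse liver, had a change of 0.04 ± 0.15, and Cyp3a25 had 0.41 ± 0.13 (adjusted p = 0.157), or 0.15 without arrays 15 and 17. None of 28 conjugation enzymes passed. Their median was 0.20, and 8 had an unadjusted p under 0.05, all higher, against 6.16% of all genes in that direction. Without arrays 15 and 17 the median was 0.11 and 1 had such a p, against 3.72% of all genes. Papss2, which makes the sulphate donor for sulphotransferases, illustrates the difference, with 10.92 to 11.16 in AM251 mice, 9.16 in vehicle mouse 15 and 10.39 to 10.92 in the other vehicle mice. The glutathione transferases Gstt3 and Gstm3 were also lowest in mouse 15, at 9.11 and 8.54.

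None of 16 other CAR and PXR targets passed. The efflux pump Abcc3 had a change of 0.39 ± 0.17, the uptake transporter Slco1a4 0.50 ± 0.23 and the epoxide hydrolase Ephx1 0.26 ± 0.14. Abcc3 was far below the other vehicle arrays in array 15, at 10.01 where the lowest of the other 4 had 10.75, and its change was 0.23 without that array. Without arrays 15 and 17 the change of Slco1a4 was 0.28. Of 12 receptors and partners none passed. The receptors themselves had changes of 0.21 ± 0.16 for Nr1i3, which encodes CAR, and 0.03 ± 0.14 for Nr1i2, which encodes PXR. Arnt, the partner of the aryl hydrocarbon receptor, had a change of 0.71 ± 0.17 (adjusted p = 0.0794), with 6.17 and 5.90 in vehicle mice 15 and 17, and 0.24 ± 0.13 without them.

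Serpina6 encodes corticosteroid-binding globulin, the plasma carrier of glucocorticoids that hepatocytes secrete. It rose under AM251, with 12.14, 12.24, 12.26, 12.16 and 12.40 in AM251 mice, against 11.42, 11.29, 11.41, 11.66 and 11.83 in vehicle mice. The groups did not overlap, and vehicle arrays 15, 16 and 17 were alike. The change of 0.72 ± 0.14, or 1.65-fold, had an adjusted p of 0.0244 by limma, and was 0.65 ± 0.16 with an adjusted p of 0.222 without arrays 15 and 17. The vehicle mean of 11.52 ± 0.22 (SD, n = 5) was the lowest of the 8 liver groups, and the AM251 mean of 12.24 ± 0.10 lay near the 12.35 ± 0.11 under AM251 and 12.25 ± 0.14 under vehicle of high-fat-fed knockouts. The changes in the other comparisons were 0.10 in high-fat-fed knockouts, 0.06 in chow-fed and -0.13 in high-fat-fed wild-type mice. Of 17 measured genes of glucocorticoid action and binding, 1 rose and 0 fell. The receptor gene Nr3c1 had a change of 0.16 ± 0.11, and Fkbp5, a receptor target, 0.27 ± 0.34 with 10.06 in AM251 mouse 23 and 7.60 to 8.54 in the other AM251 mice, against 7.40 to 8.63 in vehicle mice.

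In all, 24 genes passed in chow-fed knockouts (0.125%), 18 higher (0.094%) and 6 lower (0.0313%), and 2667 had an unadjusted p under 0.05 (13.9%), where 957 are expected by chance. Leaving out 1 array moved this count from 0, without AM251 array 22, to 351, without vehicle array 18, and it was 0 with array weights or with only the 2 groups fitted. Besides Cyp2c29 and Serpina6, 16 genes rose. Ptprd, a receptor tyrosine phosphatase, had 9.12, 9.34, 9.69, 9.40 and 9.72 in AM251 mice, against 8.41, 8.83, 8.33, 9.08 and 8.94 in vehicle mice, a change of 0.74 ± 0.13 (adjusted p = 0.0119). Vehicle arrays 15 and 17 were the lowest, the groups did not overlap, and the change was 0.50 without these arrays. Rmnd5a, a subunit of the GID/CTLH ubiquitin ligase, had 8.54, 8.87, 9.02, 8.89 and 8.93, against 7.78, 8.41, 7.82, 8.51 and 8.45 in vehicle mice, a change of 0.66 ± 0.12 (adjusted p = 0.0119). Vehicle arrays 15 and 17 were again the lowest, the groups did not overlap, and the change was 0.39 without these arrays.

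Cdk13, a kinase of the RNA polymerase II tail, had 6.93, 6.75, 6.87, 6.97 and 7.04 in AM251 mice, against 5.96, 6.66, 5.00, 6.48 and 6.35 in vehicle mice, the largest rise among the 18 at 0.82 ± 0.17. Array 17 carried much of it, and the change was 0.41 ± 0.12 without arrays 15 and 17. Med12, of the Mediator kinase module, rose by 0.55 ± 0.11, and the scaffold attachment factor gene Safb2 by 0.61 ± 0.13. The change of Med12 was 0.38 without arrays 15 and 17. Without both arrays the change of Safb2 was 0.60 ± 0.11, with an adjusted p of 0.0525 by limma. The 2 arrays moved it in opposite directions, to 0.75 without array 15 alone and 0.46 without array 17 alone. Vehicle array 15, at 6.96, lay among the AM251 arrays for Safb2. The ankyrin repeat gene Ankrd17 rose by 0.60 ± 0.11, with 0.39 without arrays 15 and 17, and the pocket protein gene Rbl2, a cell cycle repressor, by 0.46 ± 0.10.

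The A-kinase anchoring protein genes Akap11 and Akap9 rose by 0.58 ± 0.12 and 0.54 ± 0.12, and had changes of 0.35 and 0.46 without arrays 15 and 17. Apc, an inhibitor of Wnt signalling, rose by 0.62 ± 0.13, and the ceramide transfer protein gene Cert1 by 0.50 ± 0.11. Both had their lowest values in vehicle arrays 15 and 17, with 5.34 and 5.16 for Apc and 7.82 and 7.72 for Cert1, and without these the changes were 0.32 and 0.27. The dipeptidyl peptidase gene Dpp8 and the dim serotonin receptor gene Htr1d rose by 0.31 and 0.50. Among loci that make no known protein, the long noncoding RNA Oip5os1, the predicted gene Gm20300 and the pseudogene Ppp4r1l-ps rose by 0.61, 0.64 and 0.66. Without arrays 15 and 17 the changes were 0.33 for Oip5os1, 0.38 for Gm20300 and 0.71 for Ppp4r1l-ps.

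The 6 genes that fell were Sec22b, a SNARE of traffic between endoplasmic reticulum and Golgi, Sys1, a Golgi membrane protein, Lefty1, a secreted inhibitor of Nodal signalling, Tnfsf4, which encodes OX40 ligand, and the chemosensory receptor genes Vmn2r18 and Olfr527. Lefty1 had 5.25, 5.08, 5.03, 5.32 and 5.29 in AM251 mice, against 6.03, 5.47, 5.83, 5.52 and 5.87 in vehicle mice, a change of -0.55 ± 0.10 (adjusted p = 0.0119). Without arrays 15 and 17 its change was -0.42. Sec22b had 7.91, 7.82, 7.73, 7.45 and 7.84, against 8.37, 7.99, 9.10, 8.21 and 8.05 in vehicle mice, with array 17 far above the rest. Its change was -0.59 ± 0.13, and -0.34 without arrays 15 and 17. Groups did not overlap for any of the 6. The changes were -0.39 for Sys1, -0.58 for Vmn2r18, -0.37 for Olfr527 and -0.35 for Tnfsf4. That of Sys1 was -0.28 without arrays 15 and 17. Lefty1, Vmn2r18, Olfr527 and Tnfsf4 were dim. Their means over all livers were 5.35, 3.97, 5.00 and 3.24, below the median level of all genes, 5.44.

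The 24 genes were next read beside the arrays that stood apart. In 15 of the 18 genes that rose, the lowest vehicle array was 15 or 17, as in 40.2% of all genes. In 4 of the 6 that fell, the highest vehicle array was 15 or 17, as in 53.8% of all genes, a count too small to read. All 24 kept their direction and an unadjusted p under 0.05 without these arrays, but none passed after adjustment, and the median change of the higher genes was 0.39 in place of 0.61. The genes were chosen with all arrays, and this fit reused the remaining ones, so the kept direction and p are no separate support. Of all genes, 1547 then had an unadjusted p under 0.05 (8.08%). The genes that rose had a median genomic span of 52.1 kb and those that fell one of 21.9 kb, against 18.2 kb over all genes. Spans ran from 3.44 to 2270.5 kb in the 18 and from 0.918 to 25.3 kb in the 6. The 18 were also brighter, with a median log2 level of 7.74 against 5.44 over all genes. Spans at a like level were not compared. The chow-fed knockout vehicle group was the lowest of the 8 liver groups in 17 of the 18, as in 15.6% of all genes, and the highest of the 8 in each of the 6 that fell, as in 33.8%. Passing a test against this group favours such genes. Both counts were the same without arrays 15 and 17. Of all 19147 genes, the group was then lowest in 2949 and highest in 4918, in place of 2985 and 6464. The 24 genes were chosen by a test that used the remaining vehicle arrays too, so the kept counts are no separate support.

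**Figure D3:**
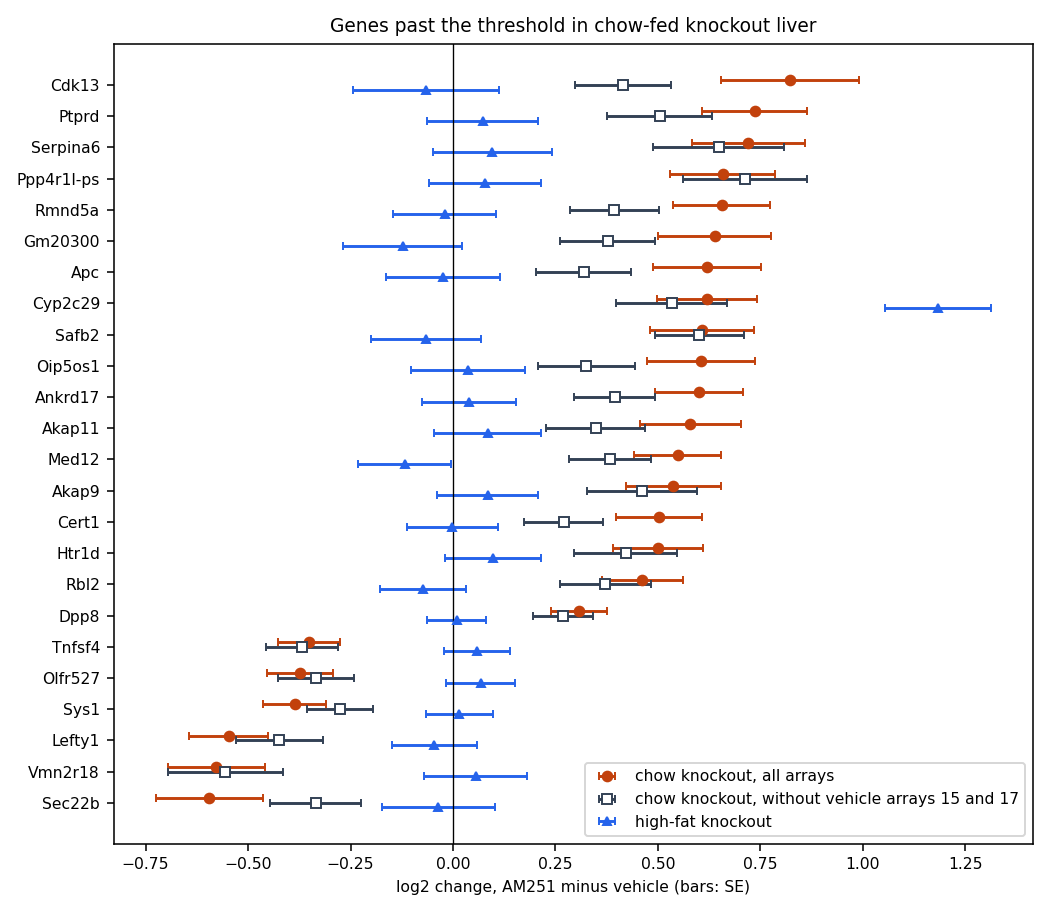
Log2 change, AM251 minus vehicle, with SE, of the 24 genes past the threshold in chow-fed knockout liver, with all arrays (circles), without vehicle arrays 15 and 17 (open squares) and in high-fat-fed knockouts (triangles). The changes keep their direction without the 2 arrays, and in high-fat-fed knockouts Cyp2c29 alone has a change past the threshold.

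The 24 genes were then read in the other comparisons, which use other arrays. In high-fat-fed knockouts 12 of the 24 had the same sign, and 1, Cyp2c29, passed, where 2 genes passed in all (0.0104%), the other being Cyp2c55, and 644 had an unadjusted p under 0.05 (3.36%). The median over the 18 genes was 0.02 there. In chow-fed wild-type livers 15 of 24 had the same sign with a median of 0.04 over the 18, and 0 passed by limma, where 2066 of all genes had an unadjusted p under 0.05 (10.8%). In high-fat-fed wild-type livers 15 of 24 had the same sign, and 2 passed, Cyp2c29 and Ppp4r1l-ps, where 366 genes passed in all (1.91%).

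A gene had several probe sets in part of these cases, and they did not always move together. For Ptprd a second bright probe set had a change of 0.50 and a dim one -0.23, and for Rmnd5a a dimmer one had 0.67 and a dim one -0.11. The other 3 probe sets of Apc had 0.34, 0.02 and -0.17, and the other 2 of Ppp4r1l-ps had 0.07 and -0.11. For Sec22b the other 2 probe sets had 0.03 each, and for Dpp8 the other 3 had -0.07 to 0.04. Med12 and Htr1d had a dim second probe set with -0.28 and -0.29. The second probe sets of Cdk13, Ankrd17 and Safb2 had 0.34, 0.23 and 0.35, and the others of Cert1 had 0.11 and 0.28. With the mean of a gene's probe sets in place of the brightest, 4 of the 24 genes passed.

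Without regard to the test, 252 genes (1.32%) had groups that did not overlap, 86 higher (0.449%) and 166 lower (0.867%). Mia2, which acts in protein export from the endoplasmic reticulum, had 7.15, 7.15, 7.61, 7.42 and 7.49 in AM251 mice, against 6.14, 6.64, 3.85, 6.99 and 7.04 in vehicle mice. Its change of 1.23 ± 0.37 (adjusted p = 0.132) rested on array 17, and was 0.66 without that array. Fam135a had a change of 0.64 ± 0.16, and 0.30 without arrays 15 and 17, with 5.87 in array 17 and 6.96 to 7.41 in the other vehicle arrays. On the lower side the purine synthesis gene Atic had 8.77, 8.51, 8.80, 8.53 and 7.95 in AM251 mice, against 9.46, 9.07, 9.08, 9.05 and 9.04 in vehicle mice (adjusted p = 0.0849). The ribosome biogenesis genes Ddx49 and Pes1 had changes of -0.49 ± 0.11 and -0.50 ± 0.14, the interferon-inducible Ifi27l2b -0.73 ± 0.28 and the acylglycerol acyltransferase gene Mogat1 -0.59 ± 0.32. The bone and phospholipase genes Sost and Pla2g10 were dim and had changes of -0.51 each.

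Lipid genes did not pass in either direction. None of 19 measured genes that make cholesterol or answer to SREBP2 passed, and their median was -0.06. Srebf2, the transcription factor of this pathway, had a change of -0.37 ± 0.12 (adjusted p = 0.167), and the mevalonate pathway genes Fdps and Mvd had -0.40 ± 0.22 and -0.54 ± 0.32. Among fatty acid and triglyceride synthesis genes none of 23 passed. Their median of 0.23 was the highest of the 30 lists of pathways, and 0.06 without arrays 15 and 17. The desaturase gene Fads2 was at 10.82 to 11.50 in AM251 mice, at 8.49 in vehicle mouse 17 and at 10.95 to 11.47 in the other vehicle mice. Dgat2, the last step of triglyceride synthesis, was likewise at 9.21 in mouse 17 and at 11.18 to 11.60 in the other vehicle mice, against 10.89 to 11.96 in AM251 mice. Acacb, the acetyl-CoA carboxylase of the mitochondrial surface, had a change of 0.80 ± 0.30 and 0.64 ± 0.35 without both arrays.

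None of 26 genes of fatty acid oxidation passed, with a median of 0.05. Hadha, of the trifunctional protein, had a change of 0.28 ± 0.09 (adjusted p = 0.155). Of 19 genes of gluconeogenesis and amino acid breakdown none passed. An unadjusted p under 0.05 was found for 6, all higher, against 6.16% of all genes in that direction. Without arrays 15 and 17 it was found for 0, against 3.72% of all genes. Slc7a2, a cationic amino acid transporter, and Got1, aspartate aminotransferase, were lowest in vehicle mouse 15, at 9.87 and 10.64. Apob, the core protein of very low density lipoprotein, had 10.38 to 10.90 in AM251 mice and spread from 8.51 in mouse 17 to 11.53 in mouse 18 among vehicle mice. The endocannabinoid list, with 13 measured genes including Cnr1, had a median of -0.08 and none passed. Dagla, which makes 2-arachidonoylglycerol, had a change of -0.15 ± 0.07, and the channel gene Trpv1 -0.23 ± 0.11. Across the 30 pathway lists, medians ran from -0.13 for endoplasmic reticulum stress to 0.23, and Cyp2c29 and Serpina6 were the only members that passed.

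**Figure D4:**
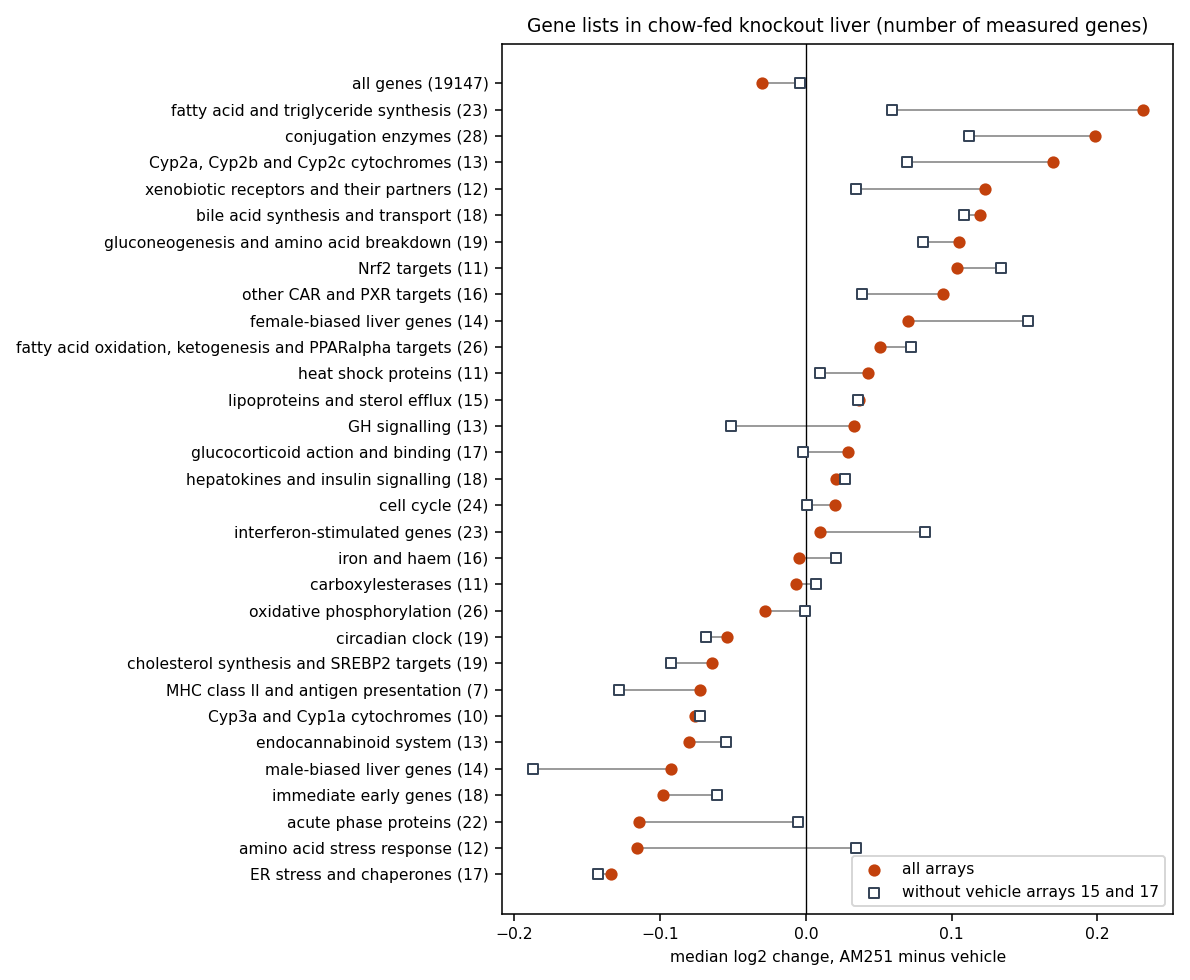
Median log2 change, AM251 minus vehicle, of 30 pathway lists and of all genes in chow-fed knockout liver, with all arrays (filled) and without vehicle arrays 15 and 17 (open), and the number of measured genes in parentheses. The highest median with all arrays, 0.23 for fatty acid and triglyceride synthesis, is 0.06 without the 2 arrays.

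Single livers differed in inflammatory genes and in cell type markers, beside the treatment. In whole liver, fewer cells of a type and less RNA per cell cannot be told apart. Vehicle mouse 15 had high acute phase genes, the secreted proteins that hepatocytes make in inflammation, with a median deviation of 0.61 over 22 genes, where the other 9 livers had -0.21 to 0.05. Lcn2 was at 6.62, 5.40, 8.88, 7.83 and 6.74 in AM251 mice, against 13.29, 9.16, 7.69, 7.18 and 8.18 in vehicle mice. Saa2 was at 13.63, Orm2 at 11.55 and Apcs at 13.23 in mouse 15. No acute phase gene passed, and the list's median change was -0.11, and -0.01 without arrays 15 and 17. Genes of the endoplasmic reticulum stress list were also higher in mouse 15, by a median of 0.46, and in vehicle mouse 18, by 0.36. Creld2 had 11.05 and 11.44 in these mice, against 8.86 to 10.52 in AM251 mice. Conjugation enzymes were lower in mouse 15, by a median of 0.47 below the mean of the 10 livers.

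Neutrophil markers summed to 150 to 172 intensity units in AM251 mice, against 265 in vehicle mouse 15, 328 in mouse 17 and 167 to 185 in the other vehicle mice. The median probe set on these arrays had 27.5 to 28.6 units, so these sums of 6 markers were low in most livers. S100a8 had 4.40 to 5.01 in AM251 mice, against 6.04, 5.45, 6.57, 4.89 and 5.14 in vehicle mice. The AM251 values lay below the median level of all genes, 5.44. S100a9 had its 2 highest values in mice 15 and 17, at 6.64 and 6.65. All 6 measured neutrophil markers had negative changes, with a median of -0.27, and none passed. Without arrays 15 and 17 the median was -0.15, and the number with an unadjusted p under 0.05 was 0 in place of 3. Of all 19147 genes, 1487 had such a p and a negative change, and 835 without these arrays. Among AM251 mice, number 21 had the lowest sum of 11 Kupffer cell and macrophage markers, 3060 against 6372 to 8386 in the other 4 and 4616 to 8600 in vehicle mice, and its Cd5l was at 9.58 against 10.80 to 11.18 in the other 4. Its class II gene H2-Ab1 was also the lowest, at 7.60. AM251 mouse 20 had the highest sum of 10 exocrine pancreas markers, 1878 against 927 to 1368 in the other 9 livers, with the elastase gene Cela2a at 7.47. The endothelial markers summed to 2657 to 3092 in AM251 mice and 2361 to 3028 in vehicle mice, and Pecam1 among them had a change of 0.61 ± 0.17 (adjusted p = 0.101), with its 2 lowest values in vehicle mice 17 and 15, and 0.30 without these arrays. Hepatocyte markers summed to 153524 to 157031 in AM251 mice and 148460 to 157024 in vehicle mice. No marker was at 0 on any array, since the processing gives every probe set a positive value, and the part of these differences in the genes that passed was not tested.

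**Figure D5:**
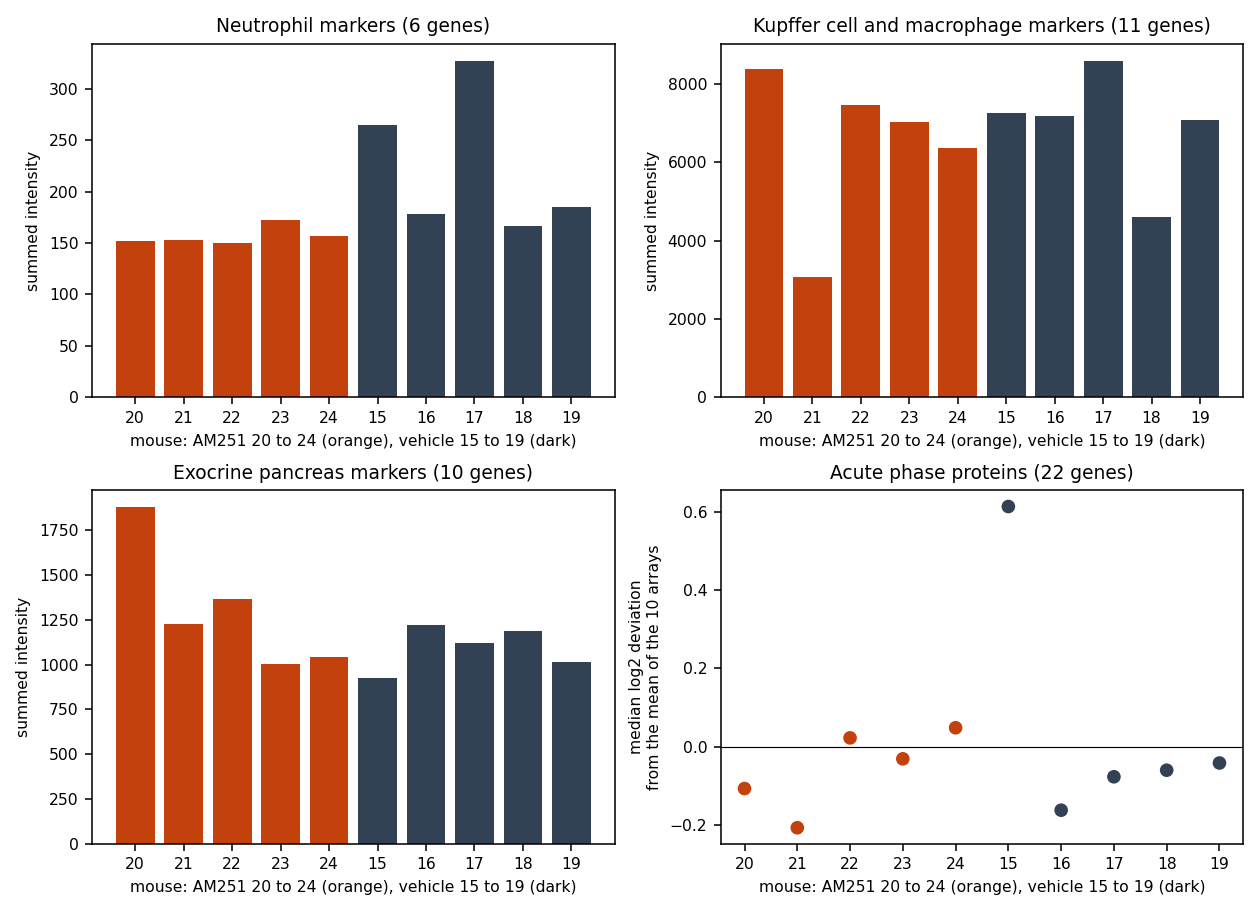
Summed linear intensity of neutrophil, Kupffer cell and macrophage, and exocrine pancreas markers, and median log2 deviation of 22 acute phase genes, in each of the 5 AM251 (orange) and 5 vehicle (dark) livers of chow-fed knockouts. Neutrophil markers are highest in vehicle mice 17 and 15, acute phase genes in vehicle mouse 15, pancreas markers in AM251 mouse 20, and macrophage markers are lowest in AM251 mouse 21.

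Bst2, an interferon-inducible membrane protein, Hmox1, haem oxygenase, and the clock gene Rora were lowest in vehicle mouse 17, at 7.99, 4.64 and 6.51, against 11.16 to 11.47, 6.42 to 7.49 and 7.70 to 8.15 in the other vehicle mice. Their AM251 values were 11.27 to 11.61, 6.44 to 7.77 and 8.01 to 8.59. Alas1, the first enzyme of haem synthesis, had 12.14, 12.81, 11.17, 12.88 and 10.64 in AM251 mice, against 11.88, 12.61, 11.86, 12.90 and 12.95 in vehicle mice. It was lowest in AM251 mice 22 and 24, the mice with the highest Cyp2b10. Among vehicle mice, mouse 17 had the lowest Alas1 and the highest Cyp2b10, but mouse 15 had the next lowest Alas1 and the lowest Cyp2b10. The pairing was seen in these values and was not tested.

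The last question was whether the effect in chow-fed knockouts differed from that in wild-type mice or on the other diet. The difference between genotypes on chow, tested as an interaction by limma, passed for 0 of 19147 genes, and 1437 had an unadjusted p under 0.05 (7.51%). The knockout effect exceeded the wild-type effect by 0.42 for Cyp2c29 (95% interval 0.07 to 0.77), by 1.25 for Cyp2c55 (0.35 to 2.15), by 1.21 for Cyp2b10 (-0.40 to 2.82) and by 0.66 for Serpina6 (0.27 to 1.05), with adjusted p from 0.526 to 0.75. The difference between diets in knockouts passed for 0 genes, and 1334 had an unadjusted p under 0.05 (6.97%). The chow effect minus the high-fat effect was -0.56 for Cyp2c29 (-0.93 to -0.20), -1.18 for Cyp2c55 (-2.11 to -0.26), -0.14 for Cyp2b10 (-1.80 to 1.52) and 0.62 for Serpina6 (0.22 to 1.03), with adjusted p from 0.624 to 0.983. These intervals are not adjusted for the number of genes, and tests that miss the threshold do not show that the effects were alike.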

How the data were processed

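The authors deposited a linear intensity per probe set and array, made with RMA, per the submitters' processing notes (version not given in the sources used here), and log2 was taken of each. Array medians were 27.5 to 28.6 intensity units in the 10 arrays compared. Of 38385 probe sets, 24478 had 1 gene symbol in the array annotation, 65 had several and 13842 were not listed. For each of 19147 genes the brightest probe set over the livers was used. All 39 liver arrays were fitted with 1 mean per group (limma 3.58.1, R 4.3.3, and data.table version 1.17.8). Fat arrays were fitted in the same way on their own. Moderated two-sided tests were adjusted by Benjamini-Hochberg over all genes, threshold 0.05, and the fit was tested on simulated data. "Rose" and "fell" mean past this threshold. Contrasts were AM251 minus vehicle in each diet and genotype, the differences between genotypes and diets, and the mean over both diets in knockouts. Alternatives changed the arrays fitted, normalization, array weights, probe set rule, variance model, filter and offset (16), or left out arrays. The 41 gene lists and the genes named were chosen with earlier results of these data known. Named genes are those past the threshold, the 10 largest changes in each direction among genes whose groups do not overlap, up to 6 members of a list with the smallest p, and Cnr1, Cyp2b10, Cyp2c29 and Cyp2c55. Cyp3a11, Nr1i2 and Nr1i3 were added for their roles. Fold changes are powers of the log2 change. Promoters and gene spans come from RefSeq tables of GRCm38.p6.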

Additional observations from a re-analysis of the deposited data

Results flagged for a closer look

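Groups of 5 arrays of 79 named genes were checked for a single array far from the other 4. Of 158 groups in all, 23 had one. About 1 in 20 would be flagged among groups of independent normal values. The genes were named with these same data known and share the same arrays, so that rate is no baseline for them. The share over all genes was not taken. In 13 of the 23 flagged groups the single array was vehicle 15 or 17. Array 15 was low for Cyp2c29 (13.00), Cyp2c55 (6.40), Abcc3 (10.01) and Got1 (10.64), and high for Atic (9.46), Orm2 (11.55) and Apcs (13.23). Array 17 was low for Med12 (6.26), Mia2 (3.85), Dgat2 (9.21), Fads2 (8.49), Rora (6.51) and Bst2 (7.99). Without array 15 the change of Cyp2c29 was 0.53 and that of Cyp2c55 0.97. Other vehicle arrays far from the rest were 16 for Ppargc1a (6.43), 18 for Srebf2 (6.79) and 19 for Rbl2 (7.18). Among AM251 arrays they were 20 for Cela2a (7.47), 21 for Cd5l (9.58), Cyp2b23 (4.06) and Pla2g10 (4.10), 22 for Tnfsf4 (2.96), 23 for Apcs (11.13) and 24 for Fads2 (10.82).

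Of the 13842 probe sets with no listed gene, which no comparison by gene used, 22 passed the threshold on their own, 13 higher and 9 lower, and 1844 had an unadjusted p under 0.05. Without vehicle arrays 15 and 17 the count was 0.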

How the results depend on the processing

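The count of 24 genes in chow-fed knockouts depended on the arrays and on the fit. It was 0 with array weights, 0 with only the 2 groups fitted, 0 without vehicle arrays 15 and 17 and 6 with the mean of a gene's probe sets, while 18 to 26 passed with quantile normalization, trend and robust prior, an offset or only brighter genes. Leaving out 1 array gave 0 (AM251 22) to 351 (vehicle 18). Without AM251 21, 23 and 24 it was 7, 12 and 10, without vehicle 15, 16, 17 and 19 it was 1 (Safb2), 73, 7 and 76. Cyp2c29 passed in 11 of 18 alternatives (0.53 to 0.67, adjusted p 0.0133 to 0.619), Serpina6 in 10 (0.65 to 0.80, 0.00632 to 0.454) and Cyp2b10 in 0 (1.72 to 2.47, 0.0703 to 0.682). Cyp2c55 passed in 4 (0.97 to 1.56, 0.0230 to 0.682). The change of Cnr1 reversed to 0.0204 without arrays 15 and 17. In the mean of both diets Cyp2c29 and Cyp2c55 passed in all 27 alternatives and Cyp2b10 in 11 (adjusted p 0.00777 to 0.187); leaving out 1 array gave 2 to 4 genes. The genotype difference passed for 1 gene without arrays 15 and 17 (Ch25h, named after its value was seen, 0.72 ± 0.12), and for 0 to 2 with 1 array left out. The diet difference passed for 0 genes in all 27 alternatives. No paired analysis was possible because AM251 and vehicle mice carry different numbers. The number of arrays and dim probe sets limit precision.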
